A study of Homo sapiens with 8 samples.

Results

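DU145 cells are an established line from human prostate cancer. The experiment described here is the treatment of DU145-Esrrb cells with DY131, a synthetic agonist of the estrogen-related receptors beta and gamma. DU145-Esrrb cells are a pool of stable transfectants that expresses Esrrb from a vector, and they were compared as DU145-Esrrb + DY131 (3 μM) against untreated DU145-Esrrb, which the description of the series also calls vehicle treatment. Both libraries of each group were taken by their column headings and sample titles, so that 4 of the 8 libraries of the series entered the comparison. The other 4 libraries are DU145-pc3.1 cells, a stable pool that carries the vector without Esrrb, untreated or with the same 3 μM DY131. They are used below to show where DU145-Esrrb cells differed. They also entered the filter, the scaling and the estimate of spread, because all 8 libraries were fitted together. All pools had been selected for the vector and were grown to confluence in medium without phenol red and with charcoal-stripped serum. Each group has 2 biological replicates. Stable transfectants were pooled, so that what belongs to Esrrb and what belongs to the selected pool cannot be told apart. How long the sequenced cells were treated is not given in the sources used here.

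Estrogen-related receptors are orphan nuclear receptors that bind DNA as monomers or dimers at an extended half-site related to TNAAGGTCA. They have no known natural hormone, are active without ligand and depend on coactivators such as PGC-1 alpha and PGC-1 beta. In many tissues they drive mitochondrial genes, and Esrrb is also known as a factor of pluripotent stem cells. A small agonist such as DY131 raises the activity of the receptor, and one gene tied to Esrrb and to DY131 in prostate cancer cells is CDKN1A, which encodes the CDK inhibitor p21.

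Whole-number read counts of 23391 genes were deposited, and the 13856 genes that reached 1 cpm (counts scaled to library size) in 2 or more of the 8 libraries were tested. Gene counts summed to 11551690 and 10678361 reads in the untreated DU145-Esrrb libraries and 7858743 and 9054498 in the treated ones, against a range of 7858743 to 11551690 over the series. The counts of both pairs of DU145-Esrrb libraries differed by more than sampling noise, with a chi-square per degree of freedom of 1.80 in the untreated and 1.29 in the treated pair. ESRRB, the gene of the transfected receptor, had 104 and 99 reads in the untreated and 105 and 143 reads in the treated DU145-Esrrb libraries, and between 0 and 3 reads in the DU145-pc3.1 libraries. Its log2 fold change with DY131 was 0.74 ± 0.19 (standard error, SE), short of the fold threshold used below. The summed level of 6 epithelial genes (EPCAM, KRT8, KRT18, KRT7, KRT19 and CDH1) lay between 4105 and 4151 cpm in all 4 libraries. Of 6 blood genes, 3 had no read in these libraries, CD3E and HBB among them, and the sum of the 6 was 2.46 to 2.57 cpm untreated and 0.652 to 0.904 cpm treated. Of 6 fibroblast and endothelial genes, DCN had no read and the sum was 4.78 to 4.92 cpm untreated and 3.13 to 3.73 cpm treated. KLK3, the gene of prostate-specific antigen and a marker of luminal prostate cells, had no read.

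The treated libraries counted fewer reads on transcripts with many exon junctions. For each gene, the share of 50-base windows that span an exon junction was computed from its annotated transcript, and 13701 tested genes had this value. Genes were split by this share into 10 groups of near-equal size. In the group with the lowest share, the median log2 fold change with DY131 was 0.26, and in the group with the highest share it was -0.55. In DU145-pc3.1 cells the same medians were -0.03 and -0.0009. Of the genes in the highest group, 25.1% were called lower in DU145-Esrrb cells and 2.55% in DU145-pc3.1 cells. Very short transcripts were also lower: of the 43 tested genes with transcripts under 300 bases, 26 were called lower, or 60.5%, against 8.77% of the 13658 genes with longer ones and against 2.33% of the short ones in DU145-pc3.1 cells. A correction that removed the trend with junction share from every library, called the junction correction, was therefore run for all genes. It ended the interaction calls of 16 of the 61 genes named in the text that were called for the interaction of DY131 with Esrrb, and these 16 are given with their corrected values in the closing section. Whether the trend arose in the cells, the libraries or the read processing was not tested.

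**Figure D1:**
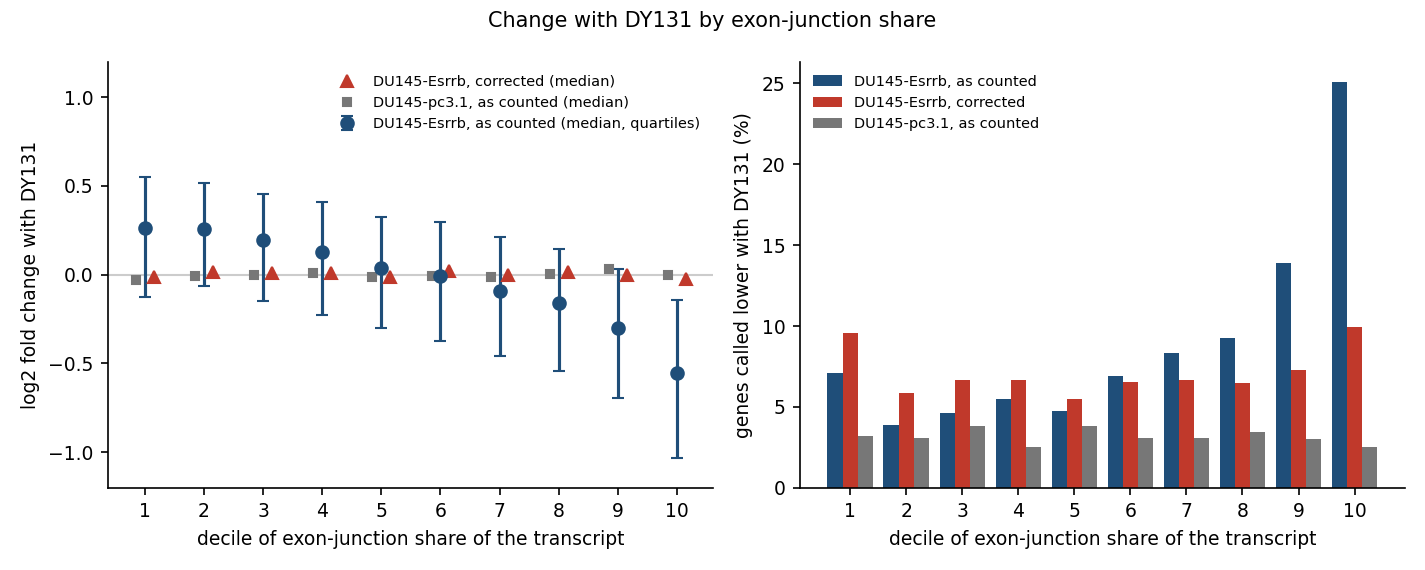
Left, log2 fold change with DY131 (y axis) over 10 groups of genes ordered by exon-junction share (x axis), with medians and quartiles for DU145-Esrrb and medians after the junction correction and for DU145-pc3.1. Right, the percent of genes called lower in each group. The median fell from 0.26 to -0.55 in DU145-Esrrb as counted, and stayed near 0 in DU145-pc3.1 and after the correction.

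Genes counted as altered when their log2 fold change was 1 or more in either direction and edgeR's quasi-likelihood F test gave a false discovery rate (Benjamini-Hochberg) below 0.05. DY131 altered 1666 of the 13856 tested genes in the DU145-Esrrb pool, which is 12%. Of these, 413 rose (2.98% of the tested genes) and 1253 fell (9.04%). The median log2 fold change over all tested genes was -0.0045. Without the fold threshold, 8128 genes (58.7%) had an adjusted p under 0.05. With the junction correction, 1394 genes (10.1%) were altered, of which 391 rose (2.82%) and 1003 fell (7.24%), and 295 of the 413 rising and 888 of the 1253 falling genes were called again in the same direction. A stricter filter of 10 counts in each library left 1090 altered genes.

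In DU145-pc3.1 cells, the same dose of DY131 altered 580 genes (4.19%), of which 142 rose (1.02%) and 438 fell (3.16%). These libraries share none with the DU145-Esrrb comparison, although all 8 libraries entered the same fit. The treated DU145-pc3.1 pair stood apart, with a chi-square per degree of freedom of 7.10 between its libraries, against 1.29 to 2.60 in the other 3 pairs, and MTRNR2L10, for example, was at 76 and 27 cpm in it. The rising lists had 58 genes in common, which is 14% of the rising list of DU145-Esrrb and 40.8% of that of DU145-pc3.1. The falling lists had 235 genes in common, 18.8% and 53.7% of the respective lists. The difference between the pools was tested as the interaction of DY131 with Esrrb, which called 870 genes (6.28%), 213 of them with a higher (1.54%) and 657 with a lower (4.74%) response in DU145-Esrrb cells. Once corrected for junction share this number was 615. Of the genes that rose in DU145-Esrrb cells, 118 were called for the interaction in the same direction, and of those that fell, 525.

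The 4 genes given as markers of this treatment, CDKN1A, TAGLN, F13A1 and PXDN, all rose. CDKN1A, the gene of the cell cycle inhibitor p21, was at 56.1 and 51.2 cpm in the untreated and at 113 and 117 cpm in the treated DU145-Esrrb libraries. The groups did not overlap, and the means were 53.7 ± 3.45 and 115 ± 2.99 cpm (SD, n = 2 each). The log2 fold change was 1.1 ± 0.09 (SE), and the Benjamini-Hochberg adjusted p was 7.13e-08 (edgeR quasi-likelihood test, over all tested genes). After the junction correction the log2 fold change was 0.87, under the threshold. Of the windows of its transcript, 4.60% span a junction. For CDKN1A the log2 fold change in DU145-pc3.1 cells was 0.32 ± 0.09. The interaction, 0.78, was below the fold threshold with an adjusted p of 0.00026 in the same edgeR test. CDKN1A (NM_000389) is placed by GENCODE 29 on the plus strand of GRCh38 chromosome 6, between 36676460 and 36687339; the counts themselves rest on hg18.

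TAGLN encodes transgelin, an actin-binding protein of contractile cells. It was at 16.3 and 14.1 cpm untreated and at 57.6 and 61.7 cpm with DY131. Both treated libraries lay above both untreated ones, and the relative rise was the largest of the 4 markers. The log2 fold change was 1.97 ± 0.18 (SE), and 1.95 after the junction correction. TAGLN also rose in DU145-pc3.1 cells, from 35.4 and 33.5 to 56.5 and 89.9 cpm, with a log2 fold change of 1.08 ± 0.15. Its treated DU145-pc3.1 libraries differed from each other more than any other pair for this gene.

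F13A1, the catalytic A subunit of the transglutaminase factor XIII, which cross-links fibrin and matrix proteins, was at 6.62 and 5.52 cpm untreated and at 16.2 and 17.2 cpm with DY131. Its change on the log2 scale was 1.45 ± 0.16, and 1.5 after the junction correction. In DU145-pc3.1 cells F13A1 moved the other way, from 39.5 and 38.6 cpm to 16.4 and 20.2 cpm. That is a log2 fold change of -1.1 ± 0.11, and the interaction, 2.55 ± 0.19, had an adjusted p of 1.58e-07 in edgeR's quasi-likelihood test. With DY131, the libraries of both pools thus lay between 16.2 and 20.2 cpm, whereas the untreated pools were far apart.

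PXDN encodes peroxidasin, an enzyme that forms sulfilimine cross-links in collagen IV of basement membranes. It was at 5.01 and 5.98 cpm untreated and at 16.7 and 14.0 cpm with DY131, with no overlap. The log2 fold change was 1.48 ± 0.17, and 1.5 after the junction correction. In DU145-pc3.1 cells PXDN went from 40.8 and 35.0 to 25.4 and 28.3 cpm, a log2 fold change of -0.50 that did not reach the fold threshold. The interaction of 1.98 was called. Untreated DU145-Esrrb cells, which serve as the control here, also had lower F13A1 and PXDN than untreated DU145-pc3.1 cells, with log2 fold changes of -2.68 and -2.79; that comparison shares the untreated DU145-Esrrb libraries with the one described here.

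**Figure D2:**
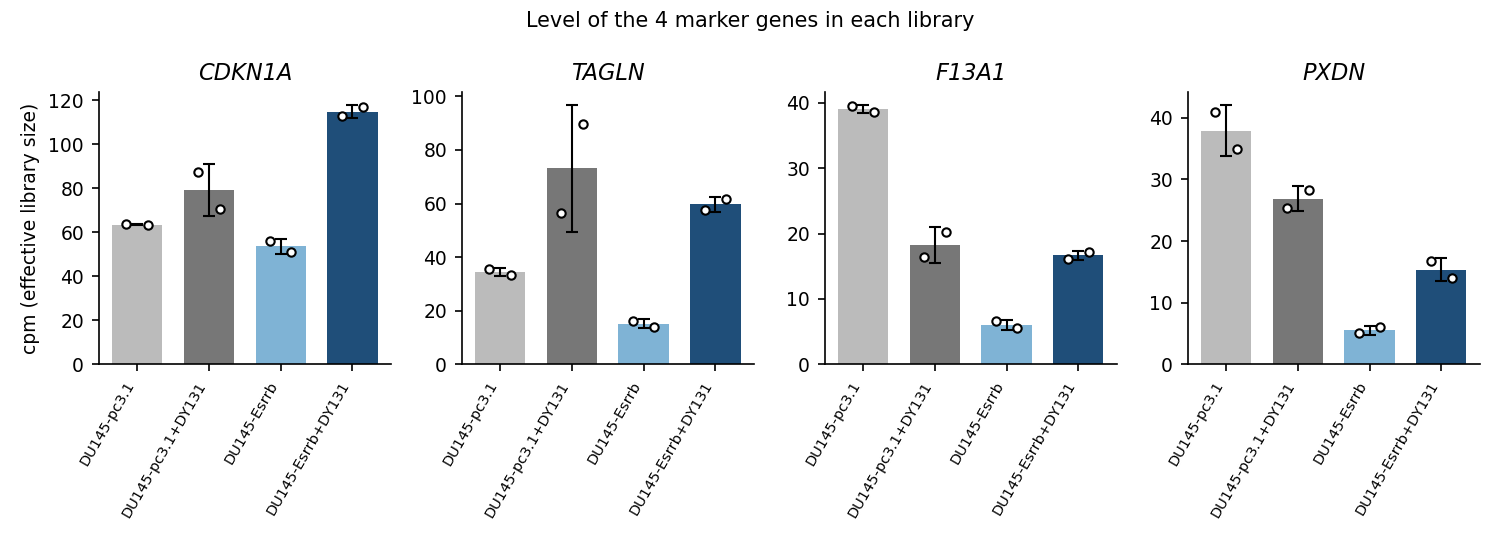
Level (cpm, y axis, from 0) of CDKN1A, TAGLN, F13A1 and PXDN in the 8 libraries by group (x axis). Bars are means of 2 libraries, error bars SD and circles single libraries. In DU145-Esrrb cells all 4 genes were higher with DY131 in both libraries, and F13A1 and PXDN were lower with DY131 in DU145-pc3.1 cells.

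The study lists 15 genes as responding both to Esrrb and to DY131, and all 15 passed the filter. This list was chosen on these libraries and is not independent evidence of a direction. In DU145-Esrrb cells, 6 of the 15 rose and 8 fell with DY131, and after the junction correction 6 rose and 7 fell. The genes that rose were TAGLN, F13A1, PXDN, SPNS2, LOC100506599 and WDR52. SPNS2, a transporter that exports sphingosine-1-phosphate, was at 5.35 and 5.24 cpm untreated and at 14.7 and 15.2 cpm with DY131. Its log2 fold change was 1.49 ± 0.15 in DU145-Esrrb and 0.11 ± 0.11 in DU145-pc3.1 cells, and the interaction, 1.38, was called. The change of WDR52, 1.15 ± 0.38, came from levels of 1.01 to 2.87 cpm; 34.8% of its windows occur in transcripts of other genes, and the call was lost in DESeq2, after the correction for transcript length and GC content, and without either of 2 libraries (DU145-Esrrb replicate 2 or treated library a).

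The 8 genes of the list that fell were LOC441454, RARRES3, TKTL1, SEMA3F, OASL, PADI2, ZCWPW2 and SDC2. TKTL1, a transketolase-like protein, was at 9.51 and 10.1 cpm untreated and at 3.52 and 4.29 cpm with DY131, a log2 fold change of -1.32 ± 0.20. In DU145-pc3.1 cells it rose by 1.39 ± 0.22, so that the interaction was -2.71 (adjusted p = 8.42e-06, edgeR's quasi-likelihood test). SEMA3F, a secreted semaphorin, was at 17.0 and 16.9 cpm untreated and at 6.65 and 7.46 cpm with DY131. Its change on the log2 scale was -1.26 ± 0.15 in DU145-Esrrb and 0.0037 in DU145-pc3.1 cells. SDC2, the cell-surface proteoglycan syndecan-2, fell by 1.04 on the log2 scale, with -1.25 after the correction, and lost its call without treated library a.

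RARRES3, a retinoic acid-induced phospholipase, PADI2, a peptidylarginine deiminase, and OASL, an interferon-induced protein, had log2 fold changes of -1.64, -1.19 and -1.25 in DU145-Esrrb cells. In DU145-pc3.1 cells RARRES3 and PADI2 fell too, with -1.42 and -1.12, and OASL had -0.66; none of the 3 was called for the interaction. ZCWPW2 was at 52.0 and 47.5 cpm untreated and at 22.2 and 25 cpm with DY131. Its log2 fold change of -1.07 became -0.83 after the junction correction, which ended the call, as did the correction for length and GC content and leaving out treated library a; 32.2% of its windows are shared with other genes. DDX60, a helicase of the interferon response, had a log2 fold change of -0.9974 and was not called.

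Among well-expressed genes with few shared windows that were called with and without the junction correction, the 8 largest rises included those of HMGA2, PRG4, TAGLN, NAV3, C6orf141, G0S2 and TMEM158. HMGA2, an architectural chromatin protein, was at 5.35 and 6.80 cpm untreated and at 26.6 and 29.8 cpm with DY131. This is a log2 fold change of 2.22 ± 0.15, and in DU145-pc3.1 cells it was 0.72 ± 0.17. PRG4, which encodes the lubricating proteoglycan lubricin, went from 3.14 and 4.32 to 14.2 and 15 cpm, a log2 fold change of 1.98 ± 0.19 against -0.09 ± 0.21 in DU145-pc3.1 cells. For both genes the interaction was called, and the treated libraries lay far above the untreated ones.

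G0S2, an inhibitor of adipose triglyceride lipase, was at 21.4 and 26.3 cpm untreated and at 86.0 and 75.2 cpm with DY131. The treated libraries lay far above the untreated ones, with a log2 fold change of 1.76 ± 0.12, and G0S2 was called for the interaction. C6orf141 rose by 1.88 ± 0.16, and its interaction call was lost with the junction correction, at 0.75. NAV3, a microtubule-binding neuron navigator, had 1.88 ± 0.14 in DU145-Esrrb and also rose in DU145-pc3.1 cells, by 1.45. TMEM158, a Ras-induced membrane protein, had 1.75 ± 0.17 and, in DU145-pc3.1 cells, 0.99. For NAV3 and TMEM158 the interaction was not called. TAGLN is described above.

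The 8 largest falls by the same rule were those of RPS21, MTRNR2L3, MTRNR2L6, MTRNR2L10, SNHG5, ATP5I, RPS29 and UXT, and none was called in DU145-pc3.1 cells, where their log2 fold changes ran from -0.43 to -0.07. RPS21, a protein of the small ribosomal subunit, was at 87.5 and 83.4 cpm untreated and at 0.391 and 0.339 cpm with DY131, which are 3 reads in each treated library. The ratio of treated to untreated was 0.00425, with a 95% interval for counting error of 0.00156 to 0.00926. RPS29, of the same subunit, went from 558 and 546 cpm to 17.5 and 20 cpm. These treated libraries were at a small part of the level of every other library of the series.

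MTRNR2L3, MTRNR2L6 and MTRNR2L10 are humanin-like genes, nuclear copies of part of the mitochondrial large ribosomal RNA, so that reads of mitochondrial and nuclear origin can be hard to tell apart. MTRNR2L10 was at 59.2 and 63.9 cpm untreated and at 1.70 and 1.47 cpm with DY131. All 7 tested genes of this family were called lower, with log2 fold changes of -6.80 to -1.97, and in DU145-pc3.1 cells none was called, with -0.92 to -0.08. SNHG5, a host gene of small nucleolar RNAs, had a log2 fold change of -5.08 ± 0.17, ATP5I, a subunit of ATP synthase, -5.00 ± 0.20, and UXT, a prefoldin-like protein, -4.74 ± 0.24. Exon-junction windows make up 73.6% of the transcript of RPS21, 61.9% of SNHG5, 46.5% of ATP5I and 55.6% of UXT. They make up none of the 3 humanin-like genes and 1.40% of the annotated transcript of RPS29. That RPS29 transcript is 7062 bases long, and whether it is the form these cells express was not tested. The junction share and corrected value of RPS29 rest on it. With the junction correction the 8 log2 fold changes ran from -7.01 to -3.66. The part of read processing in these falls was not tested.

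**Figure D3:**
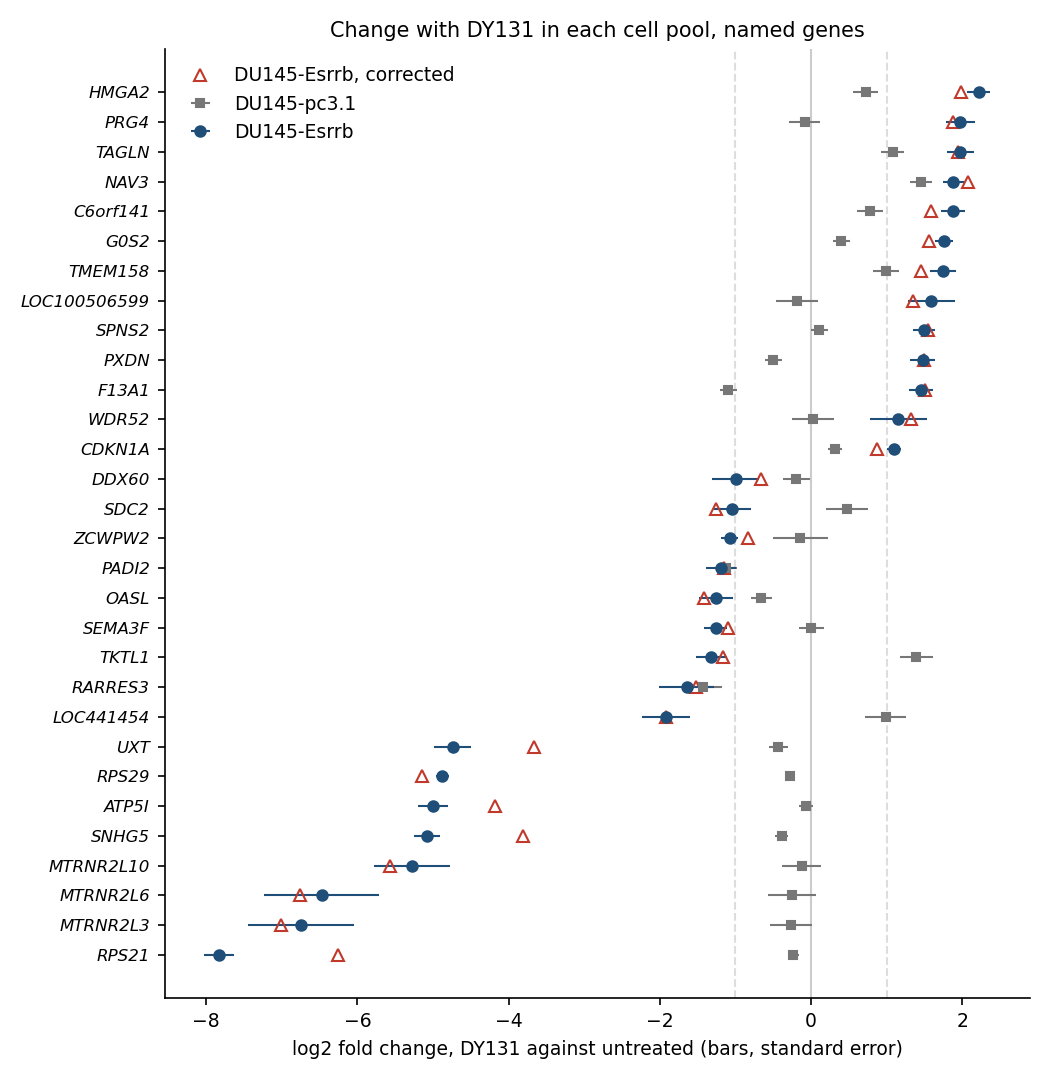
Log2 fold change with DY131 (x axis, bars are standard errors, n = 2 against 2 libraries) of the markers, the study's 15 genes and the largest rises and falls (y axis) in DU145-Esrrb, in DU145-Esrrb after the junction correction, and in DU145-pc3.1. Dashed lines mark the fold threshold. F13A1 and TKTL1 lie on opposite sides of 0 in the cell pools, and the 8 largest falls lie near 0 in DU145-pc3.1.

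Of 14 tested genes of the estrogen-related receptors and their coregulators, 2 rose and 1 fell, beside 2.98% and 9.04% of all tested genes, and the median log2 fold change was 0.32. Once corrected for junction share 1 rose and 1 fell. PPARGC1B, the coactivator PGC-1 beta, was at 5.43 and 5.61 cpm untreated and at 13.8 and 11.5 cpm with DY131. Its log2 fold change was 1.19 ± 0.18, and it also rose in DU145-pc3.1 cells, by 1.43. TFCP2L1, a transcription factor that works beside Esrrb in stem cells, rose by 1.16 ± 0.14, but by 0.99 and so below the threshold after the junction correction. NR0B1, a corepressor of nuclear receptors, fell from 2.63 and 1.75 to 0.652 and 1.02 cpm, a log2 fold change of -1.37 ± 0.44 whose call was lost in DESeq2 and without DU145-Esrrb replicate 1 or treated library a.

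Of 25 metabolic genes commonly used as targets of these receptors, none rose and 4 fell, beside 2.98% and 9.04% of all tested genes. The median was -0.33. After the junction correction 2 fell, beside 7.24% of all tested genes. ETFA, which passes electrons from fatty acid oxidation to the respiratory chain, was at 102 and 99.5 cpm untreated and at 28.4 and 30.8 cpm with DY131, a log2 fold change of -1.76 ± 0.08. SDHB, the iron-sulfur subunit of succinate dehydrogenase, had -1.56 ± 0.11. After the junction correction ETFA and SDHB remained called, with -1.58 and -1.18, and UQCRC1 and COX5B did not, with -0.73 and -0.90. The 4 genes had log2 fold changes between -0.23 and 0.02 in DU145-pc3.1 cells.

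Of 76 tested subunits of the respiratory complexes, 14 fell and none rose (median -0.44, and 12 and -0.29 after the junction correction). NDUFA11 and NDUFB2 of complex I and ATP5D of ATP synthase had log2 fold changes of -2.42, -2.13 and -1.74, with -0.31, -0.12 and 0.14 in DU145-pc3.1 cells. Of 34 genes of the TCA cycle and fatty acid oxidation, 8 fell and none rose, with a median of -0.65 that became -0.29, and 4 calls, after the correction. The shares that fell, 14 of 76 and 8 of 34, stand beside 9.04% of all tested genes.

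Of 20 genes of branched-chain amino acid and propionate breakdown, 8 fell and none rose, beside 9.04% of all tested genes that fell. After the junction correction 6 fell, beside 7.24% of all tested genes. The median of the list was -0.71 before and -0.67 after the correction, so that the median moved little, while single members moved more. BCKDHB, a subunit of the branched-chain ketoacid dehydrogenase, was at 12.6 and 12.5 cpm untreated and at 3.78 and 2.49 cpm with DY131, a log2 fold change of -2.01 ± 0.19. PCCA, a propionyl-CoA carboxylase subunit, and AUH, of leucine breakdown, had -1.90 and -1.43. ALDH6A1, of valine breakdown, had -1.56 and, in DU145-pc3.1 cells, -1.41. After the junction correction BCKDHB was at -1.57, PCCA at -1.11 and AUH at -1.12, while ALDH6A1 moved the other way, to -1.67. The list's median in DU145-pc3.1 cells was -0.39, with 1 gene called.

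Of 33 genes of sterol and fatty acid synthesis, 8 fell and none rose (median -0.66, and 6 and -0.63 after the junction correction). The shares of all tested genes that fell were 9.04% as counted and 7.24% after the correction. TM7SF2, a sterol reductase, was at 45.8 and 42.7 cpm untreated and at 12.9 cpm in both treated libraries. Its change on the log2 scale was -1.78 ± 0.12, and -1.38 in DU145-pc3.1 cells. ACSS2, which makes acetyl-CoA from acetate, had -1.60 in DU145-Esrrb and -1.3 in DU145-pc3.1 cells, and neither was called for the interaction. FDPS, of isoprenoid synthesis, had -1.41, and -0.93 after the correction.

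Of 28 targets of NRF2 and redox enzymes, 11 fell and none rose (median -0.82, and 8 and -0.64 after the junction correction). Of all tested genes, 9.04% fell as counted and 7.24% after the correction. TXN, the gene of thioredoxin, was at 234 and 246 cpm untreated and at 52.4 and 49.3 cpm with DY131, a log2 fold change of -2.24 ± 0.08 against 0.08 in DU145-pc3.1 cells. GSTM1, a glutathione transferase for which 58.5% of windows also occur in other genes, had -2.23 and is uncertain for that reason. AKR1C1 and AKR1B10, aldo-keto reductases, had -2.05 and -1.84 from untreated levels of 1.1 to 2.46 cpm. The ratio of AKR1C1 was 0.235 with a counting interval of 0.0809 to 0.565. Its call was lost without DU145-Esrrb replicate 1 and without either treated library, and that of AKR1B10 after the junction correction, without DU145-Esrrb replicate 1 and without treated library a. NQO1, a quinone reductase and defining NRF2 target, was at 1601 and 1504 cpm untreated and at 1024 and 1022 cpm with DY131, a log2 fold change of -0.60 that did not reach the threshold.

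Among CDK inhibitors and cyclins, 1 of 17 tested genes, CDKN1A, rose and CDKN1C, the inhibitor p57, fell, beside 2.98% and 9.04% of all tested genes. With the junction correction CDKN1A was no longer called and CDK6, a kinase that cyclin D activates and that is named here after its values were seen, was, with 1.11 against 0.92 as counted. CDKN1C was at 3.56 and 4.32 cpm untreated and at 1.3 and 2.49 cpm with DY131; its call was lost in 4 of the alternatives, among them DESeq2 and leaving out treated library a. CDKN1B, the inhibitor p27, was at 73.6 and 68.5 cpm untreated and at 65.1 and 69.2 cpm with DY131, so that the groups overlapped. CCND1, the gene of cyclin D1, was at 402 and 429 cpm untreated and at 792 and 790 cpm with DY131, a log2 fold change of 0.93 ± 0.06 just under the fold threshold, and 0.71 in DU145-pc3.1 cells.

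Of 31 genes of the mitotic spindle, SPC24, a kinetochore protein, was the only one called: it fell from 9.08 and 7.91 to 1.70 and 2.49 cpm, a log2 fold change of -2.0 ± 0.23. Of 35 genes of DNA replication, 6 fell and none rose, beside 9.04% of all tested genes that fell, and 3 fell after the junction correction. POLE2, a subunit of DNA polymerase epsilon, RPA3, of replication protein A, and DUT, the dUTPase, remained called, with -1.97, -1.71 and -1.35 as counted. LIG1, DNA ligase I, was at -1.24 as counted and -0.61 after the correction. The medians were 0.03 for the mitotic and 0.01 for the replication genes, against 0.26 for each list in DU145-pc3.1 cells.

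Of 28 tested immediate-early genes, which serum and growth factors induce, 6 fell and none rose in DU145-Esrrb cells, before and after the junction correction. In DU145-pc3.1 cells 3 fell and 1 rose, and 2 members were called for a higher response in DU145-Esrrb cells. Of all tested genes 9.04% fell in DU145-Esrrb and 3.16% in DU145-pc3.1 cells. FOS was at 43.5 and 29.7 cpm untreated and at 3.91 and 3.50 cpm with DY131. Its log2 fold change was -3.31 ± 0.27 in DU145-Esrrb and -3.35 in DU145-pc3.1 cells, where it went from 39.9 and 25.3 to 3.55 and 2.78 cpm. EGR1 was at 242 and 227 cpm untreated and at 40.3 and 37.5 cpm with DY131, a log2 fold change of -2.59 against -2.20 in DU145-pc3.1 cells. JUNB had -1.08 in each pool, and NR4A1, an orphan nuclear receptor, -1.05 and -0.59. The interaction was called for none of these 4 genes, and the transcripts of FOS, EGR1 and JUNB have few exon junctions, at 6.97%, 1.59% and 0% of their windows. JUNB lost its call after the correction for length and GC content and without treated library a, and NR4A1 after the same correction and without DU145-Esrrb replicate 2. The median of the list was 0.18, and 22 of its members were not called.

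Genes of matrix cross-linking moved in both directions. Of 24 tested, F13A1 and LOX rose and 8 fell, with 2 and 6 after the junction correction. Of all tested genes, 2.98% rose and 9.04% fell as counted, and 2.82% and 7.24% after the correction. LOX, a lysyl oxidase that cross-links collagen and elastin, was at 22.4 and 22.5 cpm untreated and at 60.0 and 65.7 cpm with DY131. The change of 1.48 ± 0.09 (log2) stood against 0.36 in DU145-pc3.1 cells. The interaction was called as counted, at 1.13, and not after the correction, at 0.91. LOXL4, another lysyl oxidase, had -1.68 ± 0.37, and FBLN1 and FBLN2, fibulins of elastic fibres and basement membranes, -1.79 and -2.18, the last from 3.06 and 2.48 to 0.521 and 0.678 cpm.

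Of 19 genes of the basement membrane, PXDN rose and COL4A5 and LAMA5 fell, beside 2.98% and 9.04% of all tested genes. COL4A5, a collagen IV chain, went from 6.37 and 4.51 to 1.17 and 0.565 cpm in DU145-Esrrb and from 0.954 and 0.616 to 3.83 and 2.48 cpm in DU145-pc3.1 cells. The log2 fold changes were -2.67 ± 0.39 and 2.01, and the interaction, -4.68, was called. LAMA5, a laminin chain, had -1.46, and -0.99 after the correction. Of 21 semaphorins and their receptors, SEMA3A rose and SEMA6B, SEMA3B, SEMA6C and SEMA3F fell, beside the same shares of all tested genes. SEMA6B was at 30.7 and 26.6 cpm untreated and at 5.34 and 6.33 cpm with DY131, a log2 fold change of -2.29 ± 0.15, and SEMA3B and SEMA6C had -1.81 and -1.33, with -1.46 and -1.04 in DU145-pc3.1 cells.

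Of 29 genes of epithelial junctions and polarity, 2 rose and 8 fell (median -0.21, and 2 and 6 calls after the junction correction), beside 2.98% and 9.04% of all tested genes. One that rose, CLDN1, a claudin named here after its values were seen, had a log2 fold change of 1.40. ELF3, an epithelial transcription factor, was at 35.2 and 36.2 cpm untreated and at 9.65 and 13 cpm with DY131, and CLDN4, a claudin of tight junctions, at 44.7 and 31.4 and at 13.2 and 13.9 cpm. Their log2 fold changes of -1.64 and -1.49 stood beside -1.96 and -1.06 in DU145-pc3.1 cells. TJP3, a tight junction scaffold, had -3.39 ± 0.51 and -2.21 in DU145-pc3.1 cells, with 0 and 9 reads in the treated libraries. ESRP1, an epithelial splicing factor, had 3 reads and 1 read there, a ratio of 0.157 with a counting interval of 0.0405 to 0.439; its call was lost without treated library b, and in DU145-pc3.1 cells it rose by 1.87. CDH1, the gene of E-cadherin, was at 114 and 107 cpm untreated and at 62.3 and 73.2 cpm with DY131, a log2 fold change of -0.70 that did not reach the threshold, and EPCAM had -0.28.

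Of 8 tested regulators and markers of epithelial-mesenchymal transition, ZEB1 and ZEB2 rose and S100A4 fell, beside 2.98% and 9.04% of all tested genes. ZEB1, a repressor of CDH1, was at 23.4 and 26.2 cpm untreated and at 60.4 and 53.6 cpm with DY131. Its log2 fold change was 1.2 ± 0.10, and 1.00 after the junction correction. In DU145-pc3.1 cells ZEB1 rose by 0.71, short of the fold threshold, and the interaction was not called. ZEB2 was at 0.594 and 0.644 cpm untreated and at 2.74 and 1.47 cpm with DY131, and its call was lost in DESeq2 and without treated library a. S100A4, a calcium-binding protein of motile cells, had -1.62 ± 0.27, and -1.03 in DU145-pc3.1 cells.

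Of 11 tested complement components and regulators, 7 fell and none rose, beside 9.04% of all tested genes that fell. None was called for the interaction, and 5 fell once corrected for junction share. The median log2 fold change of -1.14 was the lowest of the lists plotted, and it was -1.03 after the correction and -0.80 in DU145-pc3.1 cells. SERPING1, the C1 inhibitor, was at 14.6 and 10.6 cpm untreated and at 4.04 and 6.89 cpm with DY131. The change of -1.18 ± 0.34 (log2) lost its call in DESeq2 and without DU145-Esrrb replicate 1 or treated library a. C3 and C5 had -1.68 and -1.45 from at most 8.28 cpm. C3 lost its call after the junction correction and without treated library a, and C5 after the junction correction.

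Among 20 tested cytokines and genes of NF-kB signalling, 2 rose and 5 fell, beside 2.98% and 9.04% of all tested genes. In DU145-pc3.1 cells 2 rose and 2 fell. TNFAIP3, an inhibitor of NF-kB also called A20, was at 64.5 and 72.3 cpm untreated and at 196 and 198 cpm with DY131. Its log2 fold change was 1.53 ± 0.08. In DU145-pc3.1 cells TNFAIP3 rose by 0.88, short of the fold threshold, and the interaction, 0.64, was not called. IL6 went from 10.7 and 9.66 to 3.78 and 2.15 cpm, a log2 fold change of -1.80 ± 0.22, and the interaction was called. CSF2 had 1 read and 3 reads untreated and a ratio of 6.86 with a counting interval of 2.30 to 27.6, and it also rose in DU145-pc3.1 cells, by 1.41. NFKBID, an atypical inhibitor of NF-kB, had -1.1, and -0.76 after the correction; its call was also lost in DESeq2 and without DU145-Esrrb replicate 2 or treated library a.

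Tubulins and factors of RNA splicing rose in part. Of 20 tubulins and interphase kinesins, 5 rose and 1 fell, and 4 and 1 after the junction correction. Of all tested genes, 2.98% rose and 9.04% fell as counted, and 2.82% and 7.24% after the correction. TUBA1C was at 421 and 443 cpm untreated and at 1264 and 1297 cpm with DY131, TUBA1B had a log2 fold change of 1.52 and TUBB 1.33, against 0.34, 0.37 and 0.23 in DU145-pc3.1 cells. TUBA1C, TUBA1B and TUBB share 25.1%, 62.7% and 18.2% of their windows with other genes, so that the changes of single tubulins are uncertain. KIF1A, a kinesin of axonal transport, fell from 1.87 and 1.75 to 0.391 and 0.452 cpm in DU145-Esrrb cells and rose by 2.13 in DU145-pc3.1 cells; its call in DU145-Esrrb was lost without either treated library. Of 30 SR and hnRNP proteins, SRSF10, SRSF1, SON and TARDBP rose and none fell, beside 2.98% and 9.04% of all tested genes. SRSF10 was at 2.38 and 1.93 cpm untreated and at 11.7 and 9.16 cpm with DY131, a log2 fold change of 2.26 ± 0.25. SRSF1, which shares 58.5% of its windows, had 1.35. SON and TARDBP lost their calls after the correction, with 0.87 and 0.85, while HNRNPH1 gained one. In DU145-pc3.1 cells SRSF10, SRSF1, SON and TARDBP had 0.39, 0.77, 0.81 and 0.45, all short of the fold threshold. Of these, only SRSF10 was called for the interaction.

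Of 78 cytosolic ribosomal proteins, 25 fell and 1 rose (median -0.70), and after the junction correction 20 fell and 1 rose (median -0.39). In DU145-pc3.1 cells none was called, and the median was -0.23. Of all tested genes, 9.04% fell and 2.98% rose in DU145-Esrrb cells, and 7.24% and 2.82% after the correction. Beside RPS21 and RPS29, RPL36A and RPL12 had the largest falls, with -4.32 and -3.59, and 35.4% and 56.5% of their windows are shared with other genes. Of 29 genes of intraflagellar transport and the BBSome, which build the primary cilium, 13 fell and none rose (median -0.85), and 7 fell after the junction correction (median -0.38). The shares of all tested genes that fell were 9.04% and 7.24%. The list had a median junction share of 29.4%, and in the group of all genes at that share 13.9% fell as counted. IFT52 was at 25.9 and 24.0 cpm untreated and at 7.30 and 8.25 cpm with DY131, and DYNC2LI1, IFT140 and IFT27 had log2 fold changes of -2.04, -1.62 and -1.60. Junction windows make up 28.1% to 44.3% of these 4 transcripts. After the junction correction all 4 remained called, with -1.12 for IFT52, -1.28 for DYNC2LI1, -1.33 for IFT140 and -1.31 for IFT27.

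**Figure D4:**
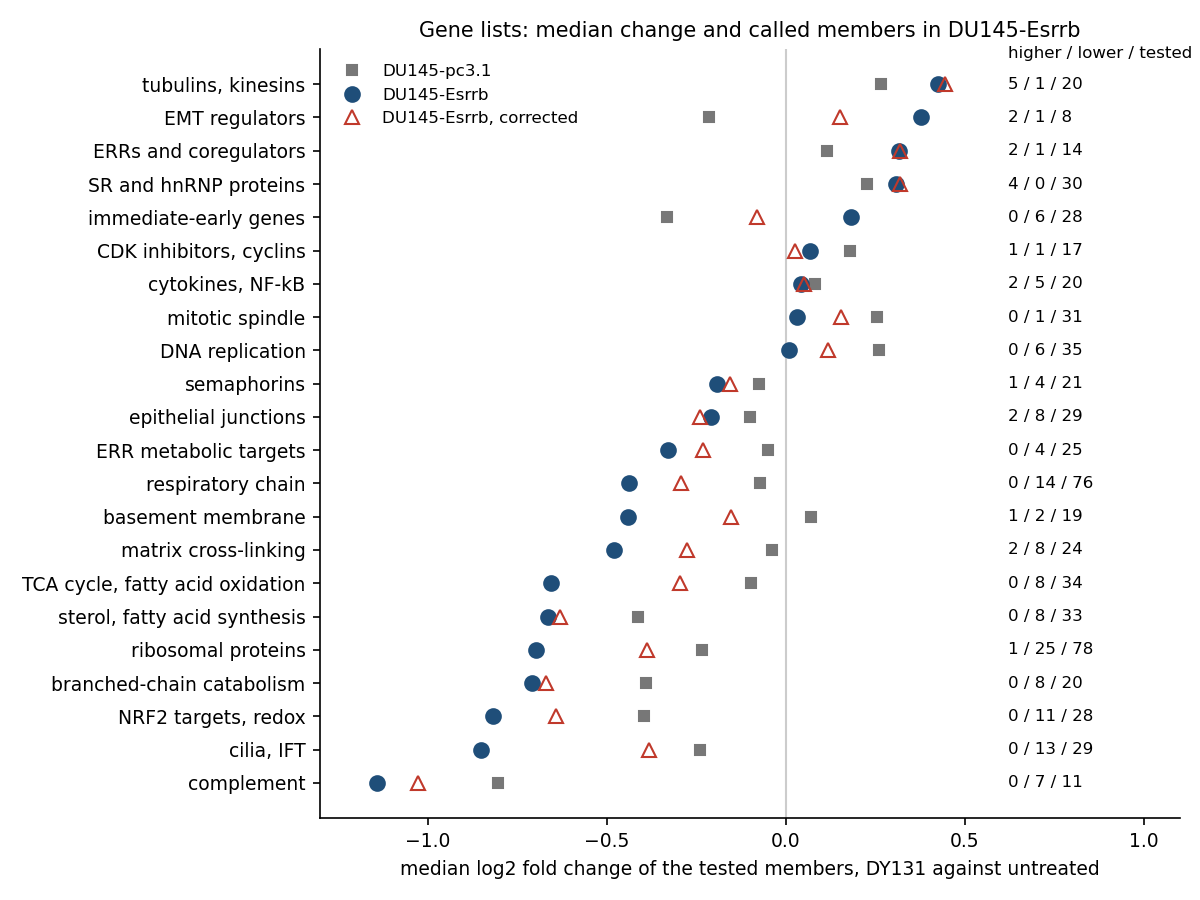
Median log2 fold change with DY131 (x axis) of the tested members of the gene lists (y axis) in DU145-Esrrb, in DU145-Esrrb after the junction correction, and in DU145-pc3.1; the numbers give the members that rose, fell and were tested in DU145-Esrrb. Of the lists plotted, complement lies lowest at -1.14, and the TCA cycle, ribosomal protein and cilia lists move furthest toward 0 with the correction.

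The promoters of the altered genes were searched for TNAAGGTCA, the half-site of estrogen-related receptors, on both strands of the window from 250 bases before to 50 bases after the start of the RefSeq gene on GRCh38.p14. A promoter was found for 10907 of the tested genes. The motif was in 56 of them (0.513%), in 2 of 267 of those that rose (0.749%) and in 7 of 900 of those that fell (0.778%). Among genes called after the junction correction it was in 0 of 184 that rose and 5 of 610 that fell (0.82%), and among those called for the interaction in none with a higher and 3 of 469 with a lower response (0.64%). The promoters of CDKN1A, F13A1 and PXDN did not hold it within this window, and that of TAGLN was not analysed here. For CDKN1A, the paper cites earlier work in which Esrrb bound a response element of its promoter. The shorter core AAGGTCA was searched in the same promoters and was in 274 of 10907 (2.51%). It was in 12 of 267 that rose (4.49%) and in 32 of 900 that fell (3.56%). After the junction correction it was in 7 of 184 that rose (3.8%) and 21 of 610 that fell (3.44%). Whether these shares differ was not tested. None of the CDKN1A, F13A1 and PXDN windows held this core. Sites outside the window, or without this core, were not searched for. The paper does not give the place of the element it cites, so the scan does not bear on that element. TNAAGGTCA and at least 10 cpm in both libraries of the higher group were found for 4 altered genes. These were ZBTB2, which rose, and MSI2, PPIH and TSPAN1, which fell. Their matches are shown to give the sites where the receptor's half-site and an altered gene coincided; 30 bases of the gene's strand are printed from 5′ to 3′, and capitals mark the match, which lies on the opposite strand in all 4.
ZBTB2: ctcggtcatgTGACCTTAAcgtaaccggac
MSI2: ctcaatcatgTGACCTTGActcctataacc
PPIH: gggtgaccatTGACCTTAAccaaaaagatg
TSPAN1: atccccctccTGACCTTCActtttcttacc

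These windows lie at chr6:151391590-151391619 on the minus strand (ZBTB2), chr17:57255643-57255672 (MSI2), chr1:42658194-42658223 (PPIH) and chr1:46174924-46174953 (TSPAN1) on the plus strand, and the matches start 50, 198, 219 and 153 bases before the gene. ZBTB2, a zinc finger transcription factor, was at 56.0 and 59.4 cpm untreated and at 118 and 116 cpm with DY131, a log2 fold change of 1.02, and 0.77 after the junction correction. MSI2, an RNA-binding protein of stem cells, went from 16.4 and 13.7 to 7.95 and 5.88 cpm, a log2 fold change of -1.13, with -1.25 after the correction, and lost its call without DU145-Esrrb replicate 1 or treated library b. PPIH, a spliceosomal cyclophilin, and TSPAN1, a tetraspanin, had -1.70 and -1.07, and both fell short of the threshold after the correction. The call of ZBTB2 was lost in 6 settings, among them other scalings and the filter of 10 counts, and that of TSPAN1 in 3; both were lost without DU145-Esrrb replicate 1. A match in a promoter is a sequence feature and was not tested for binding.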

How the data were processed

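Stranded mRNA libraries gave single-end reads 50 bases long. After trimming, TopHat2 placed the reads on hg18, and the authors deposited raw counts per gene, without normalization, made by their program MULTICOM-MAP. How reads that map to several genes were treated is not stated. Both treated DU145-Esrrb columns carry 1 heading, so they are called library a and b here. Depth ranged from 7858743 to 11551690 counted reads per library, and 3 reads corresponded to 0.260 to 0.382 cpm.

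Counts of all 8 libraries in 4 groups were fitted with edgeR 4.0.16 in R 4.3.3 (TMM scaling, quasi-likelihood F test, Benjamini-Hochberg adjustment over 13856 genes); cpm use effective library sizes. Titles and paper give biological replicates. The p-values and standard errors rest on the spread between the 2 libraries of each group, estimated over all 4 groups together and moderated across genes. The less alike treated DU145-pc3.1 pair thus also enters those of the DU145-Esrrb comparison. Counting intervals are exact (95%) and cover counting error only. Transcript length, GC content, junction share and shared 50-base windows came from GENCODE 29 on GRCh38, matched for 98.9% of the tested genes. The junction correction subtracts a lowess trend (span 0.3) of log2 cpm on junction share from each library. Simulated counts for 13856 genes in this comparison gave 100 of 100 genes changed by 1.5 and 100 of 100 changed by 2.5 (log2), with 1 false call. With a simulated junction bias alone, false calls were 1714 without and 0 with the correction. That simulated bias was set steeper than the trend seen in the treated libraries. The 1714 is therefore not an estimate of false calls in these data.

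The text names the 4 markers, the study's 15 genes, the 8 largest rises and falls (both libraries of the higher group at 10 cpm or more, called also after the junction correction, transcripts of 300 bases or more, under 20% shared windows, no microRNA, snoRNA, LOC or pseudogene) and, of each described list, up to 4 called members with the largest change plus defining members. The genes and lists were chosen with earlier results of these data known. Alternatives were edgeR's exact test, DESeq2 1.42.0, other scalings and filters, only the 4 libraries, other fold thresholds, corrections for transcript structure, and leaving out each library. A few genes that these rules name are not reported here.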

Additional observations from a re-analysis of the deposited data

Results flagged for a closer look

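The response to DY131 differed between the cell pools for 870 genes, by the interaction term of the edgeR fit over all 8 libraries. The values below are interactions on the log2 scale, the change in DU145-Esrrb minus the change in DU145-pc3.1 cells, for the genes named here that the same test called. No cause of these differences was tested.

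Among the genes of the study's own list, the interaction was 2.55 for F13A1, 1.98 for PXDN, 1.38 for SPNS2 and 1.78 for LOC100506599. It was -2.71 for TKTL1, -2.90 for LOC441454, -1.51 for SDC2 and -1.26 for SEMA3F. Of the largest rises it was 2.06 for PRG4, 1.5 for HMGA2, 1.36 for G0S2 and 1.1 for C6orf141. Further higher responses were 1.87 for SRSF10, 1.13 for LOX, 1.23 for TUBA1C, 1.15 for TUBA1B and 1.1 for TUBB. The homeobox genes had 1.84 for HOXB4, 1.11 for HOXB5 and 1.01 for HOXB6.

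Of the largest falls the interaction was -7.60 for RPS21, -6.48 for MTRNR2L3, -6.22 for MTRNR2L6, -5.15 for MTRNR2L10, -4.69 for SNHG5, -4.93 for ATP5I, -4.59 for RPS29 and -4.31 for UXT. Other ribosomal proteins had -4.18 for RPL36A and -3.10 for RPL12. In mitochondrial and amino acid metabolism it was -2.12 for NDUFA11, -2.01 for NDUFB2, -1.88 for ATP5D, -1.58 for SDHB, -1.55 for ETFA, -1.06 for UQCRC1, -1.46 for BCKDHB and -1.1 for PCCA. In DNA replication and the spindle it was -2.23 for POLE2, -2.09 for SPC24, -1.45 for RPA3, -1.36 for LIG1 and -1.33 for DUT. Cilia genes had -1.31 for IFT27, -1.15 for IFT52, -1.13 for DYNC2LI1 and -1.09 for IFT140. Genes of the matrix and of guidance cues had -4.68 for COL4A5, -2.30 for FBLN2, -1.68 for FBLN1, -1.37 for SEMA6B and -1.11 for LAMA5, of which SEMA6B is a semaphorin.

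Genes of redox and inflammation had -2.32 for TXN, -2.19 for GSTM1, -1.37 for IL6 and -1.17 for NFKBID. The remaining values were -4.48 for ESRP1, -4.19 for KIF1A, -2.41 for LYZ, -1.94 for PDCD5 and -1.84 for PPIH; LYZ, a gene of the blood list, stood at low counts in all libraries.

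After the junction correction, 16 of these 61 genes were no longer called for the interaction. The corrected values were 0.75 for C6orf141, 0.91 for LOX, 0.995 for TUBA1C, 0.88 for TUBB, 1.53 for HOXB4, 0.82 for HOXB5 and 0.88 for HOXB6. They were -0.69 for UQCRC1, -0.33 for PCCA, -0.74 for LIG1, -0.60 for IFT52, -0.40 for DYNC2LI1, -0.79 for IFT140, -0.64 for LAMA5, -0.82 for NFKBID and -0.78 for PPIH.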

How the results depend on the processing

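The count of altered genes in DU145-Esrrb cells was 1666 and stayed between 1344 and 1920 under the other tests, scalings, corrections and the absence of a filter. It was 1090 with at least 10 counts in every library, 8128 without a fold threshold and 715 with a log2 fold change of at least 1.5. Leaving out each of the 4 libraries gave 1446 to 1684. The interaction was called for 870 genes, for 4674 without a fold threshold, and for 752 to 1042 when each library was left out, where leaving out the DU145-pc3.1 libraries was chosen after seeing the data. The junction correction gave 615 and DESeq2 630. Of 116 genes followed across the alternatives, none reversed, and CDKN1A lost its call only under the junction correction. The most calls were lost with that correction (19 genes), without treated library a (13) and with the correction for length and GC content (13). No paired analysis was possible because the treated DU145-Esrrb columns carry no replicate number. With 2 libraries a group, genes under about 10 cpm rest on few reads.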

Other observations

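Of 28 tested homeobox genes of the HOX clusters, which set position along the body axis, 3 rose and none fell, beside 2.98% and 9.04% of all tested genes. HOXB6 was at 24.4 and 22.3 cpm untreated and at 45.0 and 50.5 cpm with DY131 in DU145-Esrrb cells, and HOXB5 at 9.51 and 11.8 and at 22.0 and 22.3 cpm. Their log2 fold changes were 1.04 and 1.06, against 0.02 and -0.04 in DU145-pc3.1 cells. HOXB4 had 1.72 at levels of at most 2.48 cpm. After the junction correction HOXB5 and HOXB6 were at 0.80 and 0.90, under the threshold, and none of the 3 was called for the interaction. The call of HOXB6 was lost in 6 settings and that of HOXB5 in 3.

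Of 27 tested genes of apoptosis, 3 rose and 4 fell, beside 2.98% and 9.04% of all tested genes. After the junction correction 1 rose and 4 fell, and in DU145-pc3.1 cells 3 rose and 4 fell. PDCD4, a translation inhibitor, was at 55.2 and 52.4 cpm untreated and at 13 and 10.8 cpm with DY131, a log2 fold change of -2.18, and it also fell in DU145-pc3.1 cells, with -1.34. BBC3, the BH3-only protein PUMA, fell in both pools, with -1.63 and -1.34. BCL2A1, an antiapoptotic BCL2 relative, rose in both, by 1.51 and 1.71. PDCD5 had -1.57 in DU145-Esrrb and 0.37 in DU145-pc3.1 cells.

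The 440 tested genes with ZNF symbols, a set chosen after the values were seen, had a median log2 fold change of 0.39 with DY131 in DU145-Esrrb cells, and 80.9% of them lay above 0, against 49.7% of all tested genes. Of the 440 genes, 23 rose and 7 fell, beside 2.98% and 9.04% of all tested genes. Their median junction share was 5.63%, against 14.4% for all tested genes, and after the junction correction the median was 0.20, with 8 that rose and 10 that fell. In DU145-pc3.1 cells the median was -0.01.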
